A study of Arabidopsis thaliana with 126 samples.

Results

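The genes described here are 10 *Arabidopsis thaliana* genes of root hair formation, taken by their locus identifiers from tables of 33602 genes. They are the hair regulators *RHD6* (AT1G66470), *RSL2* (AT4G33880) and *RSL4* (AT1G27740), the non-hair regulators *GL2* (AT1G79840) and *WER* (AT5G14750), and the wall genes *LRX1* (AT1G12040), *PRP3* (AT3G62680), *COBL9* (AT5G49270), *EXPA7* (AT1G12560) and *EXPA18* (AT1G62980). They were listed by locus, with no threshold on their values, and all 10 passed the minimum of 1 TPM (a transcript level scaled for length and library) in at least 2 libraries in both tables. The RNA came from etiolated seedlings aged 3 days and kept in hydrocarbon-free air, of which some were given ethylene gas (ET) for 4 hr. The first table holds 20 libraries of 5 genotypes in the Landsberg *erecta* (L*er*) background, each in air and after ET: L*er* itself, *ein6-1*, *een-1*, the double mutant *ein6-1 een-1*, and *ein2-45*. The second holds 8 libraries of seedlings in air: Col-0 and, in its background, *een-2*, *ino80-8* and *arp5-1*. Every group has 2 libraries, and as the labels do not say whether these came from separate cultures, p-values measure the spread between these libraries.

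*ein6-1* is a mutation of the histone H3K27 demethylase gene *REF6*, and *een-1* and *een-2* are mutations of *EEN*, a gene for a component of the nucleosome-remodeling INO80 complex. *ino80-8* and *arp5-1* hit genes for other components, and *EIN2* is the central positive regulator of ET signaling. *een-1* is an inversion that fuses *EEN* to another gene, and *een-2* and *ino80-8* are T-DNA insertions. *EEN* had 26.8 to 34.9 TPM in the 4 *een-1* libraries and 21.7 to 31.0 TPM in the 4 L*er* libraries, so its TPM does not check the *een-1* label. In *een-2* it had 0.32 and 1.01 TPM against 50.3 and 38.6 TPM in Col-0. *INO80* had 3.41 and 2.87 TPM in *ino80-8* against 19.0 and 20.4 TPM in Col-0, and *ARP5* had 3.96 and 4.37 TPM in *arp5-1* against 5.51 and 5.36 TPM, a difference that did not pass the test (log2 fold change -0.32, adjusted p = 0.162 in limma), so it does not check the *arp5-1* label. *EIN2* had 8.24 to 10.6 TPM in the 4 *ein6-1 een-1* libraries and 44.1 to 86.8 TPM in the 4 L*er* libraries. *REF6* in *ein6-1* and *EIN2* in *ein2-45* were not below the range of L*er* in every library, and their TPM does not check these labels.

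Root hairs are tubular outgrowths of single epidermal cells. In the *Arabidopsis* root the MYB protein WER, with its bHLH partners, switches on *GL2* in cells that stay hairless, and the homeodomain protein GL2 keeps the hair program off there. In hair cells the bHLH factor RHD6 acts at the top of that program, RSL2 and RSL4 act later, and RSL4 sets how far a hair elongates. ET and auxin are both known to promote hair growth, and the wall genes are expressed in growing hairs: *LRX1* encodes a leucine-rich repeat extensin, *PRP3* a proline-rich wall protein, *COBL9* a GPI-anchored COBRA-like protein, and *EXPA7* and *EXPA18* encode expansins, which loosen cell walls.

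Of the 5 wall genes 4 hold a match to the root hair element, a promoter motif described in root hair-specific genes. Because the motif comes from genes of this kind, its presence here is a description and no independent support for the list. The root hair element was searched on both strands of the 300 bases before each gene start (RefSeq annotation of TAIR10.1). It was found in 4 of the 10 genes, *LRX1*, *PRP3*, *EXPA7* and *EXPA18*, and in 251 of 27443 protein-coding genes (0.915%). The 60 bases around each match are printed 5′ to 3′ on the gene's strand with the element in capitals, because these 4 wall genes hold it while *COBL9* and the 5 regulators have no match in this window. In *EXPA7* and *EXPA18* the element reads on the gene's own strand, and in *LRX1* and *PRP3* on the opposite strand.
*EXPA7*, chr1:4276405-4276464: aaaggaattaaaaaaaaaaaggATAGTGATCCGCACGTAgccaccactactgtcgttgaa
*EXPA18*, chr1:23331501-23331560: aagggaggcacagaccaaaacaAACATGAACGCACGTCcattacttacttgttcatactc
*LRX1*, chr1:4069877-4069936: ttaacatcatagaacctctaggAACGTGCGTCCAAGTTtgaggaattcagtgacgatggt
*PRP3*, chr3:23182533-23182592: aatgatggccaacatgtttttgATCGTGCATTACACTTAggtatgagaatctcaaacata

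The element lies 40 to 25 bases before the start of *EXPA18*, 78 to 62 before *EXPA7*, 93 to 78 before *LRX1* and 167 to 151 before *PRP3*. The pattern TAAATGNA, a loose form of the L1 box that allows any base at N, was found in *EXPA18* alone among the 10, and in 11.8% of all genes. The match in *EXPA18* reads TAAATGAA, and whether a homeodomain protein binds it was not tested. The G-box CACGTG was found in *WER* (7.09% of all genes), and AACNG, a short core bound by plant MYB proteins, in 6 of the 10 (76% of all genes). Any overlap between matches of different motifs was allowed. These matches are a description of the letters in this window.

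The 10 genes lie on chromosomes 1, 3, 4 and 5 of TAIR10.1. *RHD6* spans chromosome 1 from 24795214 to 24797015, *RSL4* from 9654475 to 9656089 and *GL2* from 30036956 to 30041440. *RSL2* is on chromosome 4 from 16239363 to 16241169, and *WER* and *COBL9* are on chromosome 5, from 4763372 to 4764834 and from 19971884 to 19974530. Among the other wall genes, *LRX1* (4069992 to 4072681), *EXPA7* (4276505 to 4277969) and *EXPA18* (23331563 to 23333246) are on chromosome 1, and *PRP3* (23182722 to 23184042) is on chromosome 3. No stretch of 50 bases of a member's longest transcript occurred, base for base, elsewhere in the nuclear chromosomes. So *EXPA7* and *EXPA18* share no identical stretch of that length within an exon. Reads across splice junctions and reads aligned with mismatches were not covered by this search. *GL2*, *EXPA7* and *EXPA18* each overlap other annotated genes, and whether counting used strand is not given in the sources used here, so reads in the overlaps cannot be told apart. This limits the *GL2* values in every comparison.

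The libraries differed in rRNA share, which bears on every TPM because the TPM of a library sum to a fixed total. rRNA took 2.8 to 30.3% of the TPM in the first table and 0.921 to 3.54% in the second. The highest share was in *ein6-1* ET replicate 2, whose factor for median-of-ratios rescaling, a scaling that sets the typical gene equal between libraries, was 0.622 against 0.810 to 1.15 in the other libraries of that table. Values are given as deposited, and the text says where rescaling changes a call. Root and shoot markers were both detected: of 11 root cell markers none was at 0 in any library, and of 9 shoot markers the trichome gene *GL1* was at 0 in 26 of 28 libraries and the stomatal gene *MUTE* in 1. The seedlings are mixtures of cells, in which fewer hair cells and less RNA per hair cell cannot be told apart.

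TPM is scaled for transcript length, so levels can be set side by side. *PRP3* was the most abundant, with a median of 186 TPM over the 20 libraries of the first table (81.6 to 361 TPM), followed by *EXPA18* at 64.2 TPM (34.7 to 171), *LRX1* at 30.1 TPM (11.7 to 66.5) and *EXPA7* at 25.1 TPM (11.6 to 49.7). *COBL9* was the lowest of the wall genes at 13.7 TPM (8.47 to 23.1). Among the regulators *WER* had a median of 17.7 TPM (7.94 to 27.2) and *RSL4* of 13.2 TPM (6.31 to 23.3), *GL2* 8.97 TPM (2.56 to 12.4), *RHD6* 4.72 TPM (3.38 to 10.4) and *RSL2* 2.69 TPM (1.38 to 6.85). The ranges of neighbors in this order overlapped. In the second table *PRP3* was again highest (93.0 to 349 TPM) and *RSL2* (1.5 to 6.47 TPM) and *RHD6* (3.44 to 5.53 TPM) were lowest.

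ET lowered both non-hair regulators and 1 hair regulator in L*er*, and no member of the wall group passed the test. *GL2* had 6.43 and 8.39 TPM in air and 4.04 and 5.28 TPM after ET. *WER* had 20.1 and 22.8 TPM in air and 12.7 and 13.0 TPM after ET. *RSL2* fell the furthest of the 3, from 6.85 and 4.88 TPM to 1.38 and 2.62 TPM. In each of these genes both ET libraries lay below both air libraries. The log2 fold changes on the log2(TPM + 1) scale were -1.21 ± 0.25 for *RSL2* (standard error, adjusted p = 0.00326), -0.69 ± 0.21 for *WER* (adjusted p = 0.0293) and -0.57 ± 0.20 for *GL2* (adjusted p = 0.0499, limma with Benjamini-Hochberg adjustment over all 20592 genes, as throughout). The 3 of 10 called stand beside 19.5% of all genes called in this comparison, a share that counts both directions here and throughout. Of all genes, 961 were lower and 3054 higher. The median log2 fold change was -0.26 over the 10 genes and 0.25 over all genes. After rescaling, the median over all genes was 0.02 and the same 3 genes were lower, *GL2* at -0.81 and *WER* at -0.95.

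*RSL4* and *EXPA7* had higher values after ET that did not pass. *RSL4* had 14.2 and 13.5 TPM in air and 18.6 and 23.3 TPM after ET (log2 fold change 0.55, adjusted p = 0.0627). *EXPA7* had 29.3 and 28.1 TPM in air and 36.4 and 49.7 TPM after ET (0.55, adjusted p = 0.0735). *LRX1*, *PRP3*, *COBL9* and *EXPA18* differed widely between the 2 L*er* ET libraries: *PRP3* had 194.9 and 361 TPM there, with its air values of 329.8 and 301 TPM between them. The call of *GL2* in L*er* was at the threshold and was lost without each of 18 of the 20 libraries (adjusted p up to 0.284). That of *WER* was lost without any 1 of the 4 L*er* libraries (up to 0.149), and that of *RSL2* without replicate 1 of L*er* air or of L*er* ET (up to 0.0659).

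ET lowered *GL2* in both single mutants as well. In *ein6-1* it had 9.41 and 9.64 TPM in air and 3.43 and 2.56 TPM after ET, 3.18-fold lower by the means (log2 fold change -1.41 ± 0.20, adjusted p = 8.26e-05). *WER* fell from 18.3 and 15.0 TPM to 9.53 and 7.94 TPM (-0.86, adjusted p = 0.0112). These 2 of 10 stand beside 11.4% of all genes, whose median moved by -0.20 in this comparison. The replicate with the highest rRNA share is one of the 2 *ein6-1* ET libraries: after rescaling *GL2* was still lower (-1.20), while *WER* did not pass (-0.60, adjusted p = 0.0569). *WER* also lost its call without that library or without *ein6-1* air replicate 1 (adjusted p up to 0.142). *GL2* kept its call with each library left out, and lost it when the 4 *ein6-1* libraries were fitted alone (adjusted p = 0.061).

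In *een-1*, *GL2* had 12.4 and 10.7 TPM in air and 6.37 TPM in both ET libraries (-0.76 ± 0.20, adjusted p = 0.0213). It was the 1 member called, beside 7.35% of all genes. *WER* had 22.5 and 23.9 TPM in air and 18.4 and 12.1 TPM after ET (-0.61, adjusted p = 0.0971) and passed after rescaling (-0.64, adjusted p = 0.0471). *RSL4*, which did not pass, had 8.79 and 9.71 TPM in air and 12.3 and 14.4 TPM after ET. The call of *GL2* was lost without any 1 of the 4 *een-1* libraries (adjusted p up to 0.211).

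No member was called for ET in *ein6-1 een-1* or *ein2-45*. In *ein6-1 een-1*, *GL2* had 8.71 and 9.32 TPM in air and 9.13 and 9.92 TPM after ET, and its groups overlapped. *RSL2* had 6.5 and 5.35 TPM in air and 5.57 and 4.74 TPM after ET. limma called 0 of 10 members, beside 0.379% of all genes. Below an unadjusted p of 0.05 were 1096 of all 20592 genes and 1 member. That was *WER*, with 25.3 and 27.2 TPM in air and 19.98 and 17.0 TPM after ET. The count was 0 under every other setting and with each library left out.

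In *ein2-45* the value of *WER* was on the other side. It had 10.1 and 11.4 TPM in air and 21.7 and 15.0 TPM after ET (log2 fold change 0.70, unadjusted p = 0.00364, adjusted p = 1). *GL2* had 10.0 and 8.82 TPM in air and 11.0 and 10.5 TPM after ET, and *RSL2* had 2.55 and 2.20 against 2.82 and 2.96 TPM. limma called 0 of 10 members, with 1 below an unadjusted p of 0.05, beside 0% of all genes, and the count was 0 under all other settings. Over all 20592 genes 514 had an unadjusted p below 0.05.

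The difference in ET response was tested directly. For *ein2-45* against L*er*, *WER* differed by 1.39 ± 0.30 (adjusted p = 0.0103) and *RSL2* by 1.42 ± 0.36 (adjusted p = 0.031) on the log2 scale. These 2 of 10 stand beside 3.71% of all genes. The difference for *GL2* was 0.74 (adjusted p = 0.158), and 0.92 after rescaling (adjusted p = 0.00681). For *RSL2* the L*er* air value entering the difference was 5.87 TPM on average and the *ein2-45* air value 2.38 TPM, so the genotypes differed before treatment. The call of *RSL2* was lost without L*er* air replicate 1, L*er* ET replicate 1 or any 1 of the 4 *ein2-45* libraries (adjusted p up to 0.169). That of *WER* was lost without L*er* air replicate 2, *ein2-45* air replicate 1 or *ein2-45* ET replicate 1 (up to 0.0981).

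For *ein6-1 een-1* against L*er*, 0 of 10 were called beside 3.7% of all genes. Below an unadjusted p of 0.05 in limma were 4793 of all 20592 genes and 2 of the 10. These were *RSL2* (1.04, adjusted p = 0.0979) and *GL2* (0.64, adjusted p = 0.179), and both were called after rescaling, at 1.35 (adjusted p = 0.0286) and 0.95 (adjusted p = 0.0059). For *ein6-1* the count was 0, beside 0.0146% of all genes. There 2 of the 10 had an unadjusted p below 0.05, as had 4918 of all 20592 genes. For *een-1* the count was 0, beside 0%, and below an unadjusted p of 0.05 were 1 of the 10 and 1285 of all genes. Without *ein6-1* ET replicate 1, only the *ein6-1* ET library with the highest rRNA share was left. Calls over all genes then rose steeply, so no member call in that fit is read here. For *een-1* limma called no member under any setting tried. The 4 differences share the L*er* libraries.

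**Figure D1:**
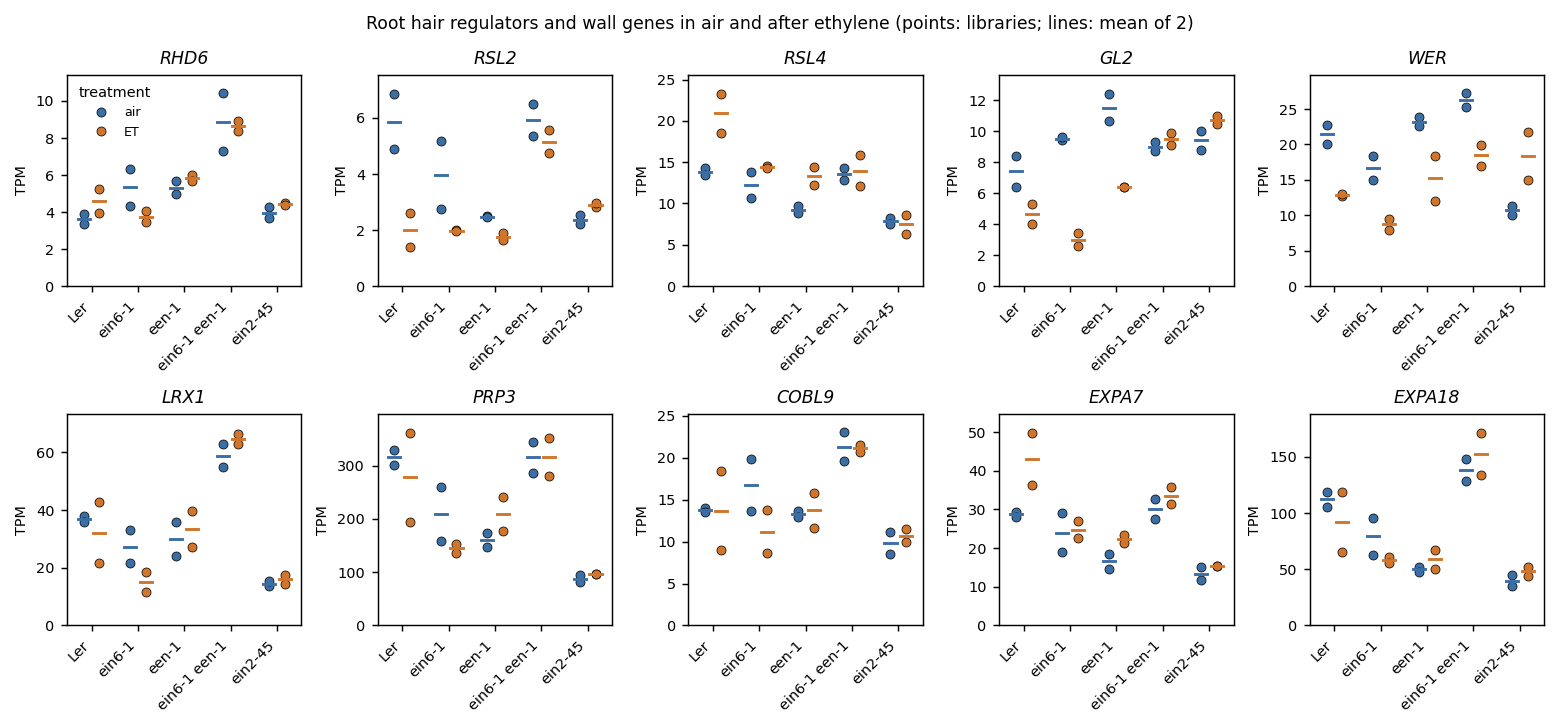
TPM (vertical axis, linear, from 0) of each gene by genotype (horizontal axis) in the first table, where points are libraries, short lines are means of 2 libraries, blue is air and orange is ET. *GL2* is lower after ET in L*er*, *ein6-1* and *een-1*, and *PRP3* lies between 81.6 and 97.4 TPM in the 4 *ein2-45* libraries and at 136 TPM or more in the other 16.

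In air, *ein2-45* had less RNA of 4 wall genes and of 3 regulators than L*er*. *PRP3* had 81.6 and 94.0 TPM against 329.8 and 301 TPM in L*er*, a 3.59-fold difference of the means (log2 fold change -1.83 ± 0.25, adjusted p = 3.85e-05). *EXPA18* had 34.7 and 45.0 TPM against 119 and 105 TPM (-1.48, adjusted p = 0.000279). *LRX1* had 13.7 and 15.3 TPM against 38.1 and 36.0 TPM (-1.30, adjusted p = 0.00334), and *EXPA7* had 11.6 and 15.0 TPM against 29.3 and 28.1 TPM (-1.06, adjusted p = 0.0016). In each of the 4 the libraries of the mutant lay below both of L*er*. *COBL9*, at 11.2 and 8.47 TPM against 14.0 and 13.6 TPM, did not pass as deposited (-0.46, adjusted p = 0.288) and passed after rescaling (-0.66, adjusted p = 0.048).

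Among the regulators, *RSL2* had 2.55 and 2.20 TPM in *ein2-45* air libraries against 6.85 and 4.88 TPM (-1.01, adjusted p = 0.00865). *RSL4* had 8.26 and 7.57 TPM against 14.2 and 13.5 TPM (-0.74, adjusted p = 0.0162), and *WER* had 10.1 and 11.4 TPM against 20.1 and 22.8 TPM (-0.94, adjusted p = 0.00429). *RHD6*, with 4.25 and 3.69 TPM, overlapped L*er*. In all, 7 of 10 were lower and none higher, beside 15.8% of all genes called in either direction (895 lower and 2360 higher). The median was -0.97 over the 10 genes and 0.18 over all genes. *LRX1*, *PRP3*, *EXPA7* and *EXPA18* kept their calls with each library left out, while those of *RSL2* and *RSL4* were lost without 2 and 4 libraries and that of *WER* without *ein2-45* air replicate 1 (adjusted p up to 0.143). For *RSL2* these were L*er* air replicate 1 and *ein2-45* air replicate 2, and for *RSL4* the 4 air libraries compared. The 11 root markers summed to 638 and 469 TPM in *ein2-45* and 387 and 413 TPM in L*er*. The endodermal gene *CASP1* made up most of this sum. Of the 10 root markers tested 2 were higher, *TMO5* and *SHR*. The part of the root markers in the result was not tested. rRNA took 16.1 and 11.6% of the TPM in the L*er* air libraries and 4.97 and 13.2% in those of *ein2-45*, and after rescaling 8 of 10 were lower.

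The *een-1* libraries in air also had less RNA of 3 wall genes. *EXPA18* had 52.4 and 47.4 TPM against 119 and 105 TPM in L*er* (-1.15 ± 0.24, adjusted p = 0.00412). *PRP3* had 174 and 148 TPM against 329.8 and 301 TPM (-0.97, adjusted p = 0.0105), and *EXPA7* had 18.5 and 14.6 TPM against 29.3 and 28.1 TPM (-0.77, adjusted p = 0.0159). *RSL2* was lower, at 2.5 and 2.46 TPM (-0.97, adjusted p = 0.0121), and *GL2* higher, at 12.4 and 10.7 TPM (0.58, adjusted p = 0.0406). That makes 5 of 10 beside 23.7% of all genes (540 lower and 4343 higher). The median was -0.43 over the 10 and 0.32 over all genes. After rescaling *GL2* did not pass (0.24, adjusted p = 0.22) and *RSL4* did (-0.89, adjusted p = 0.00804), so the split of 1 higher and 4 lower became 0 and 5. The calls of *RSL2*, *PRP3*, *EXPA7* and *EXPA18* were lost without L*er* air replicate 1 or *een-1* air replicate 2, and that of *EXPA7* also without L*er* air replicate 2 (adjusted p up to 0.176). That of *GL2* was lost without each of 14 of the 20 libraries (up to 0.318). The 9 shoot markers summed to 1388 and 1234 TPM in *een-1* and 700.3 and 856 TPM in L*er*, 5 of the 8 tested being higher, and rRNA took 6.42 and 2.8% in *een-1* against 16.1 and 11.6% in L*er*. The shoot epidermis gene *PDF1* made up most of the shoot marker sum. The part of the shoot markers in the result was not tested.

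In *ein6-1 een-1* in air no wall gene passed the test against L*er*. *PRP3* had 345 and 287 TPM, around the 329.8 and 301 TPM of L*er*. *LRX1* had 62.8 and 54.9 TPM against 38.1 and 36.0 TPM (0.65, adjusted p = 0.0809), and *COBL9* had 23.1 and 19.6 TPM against 14.0 and 13.6 TPM (0.59, adjusted p = 0.0981). The 1 member called was *RHD6*, with 10.4 and 7.28 TPM against 3.38 and 3.88 TPM (1.07 ± 0.22, adjusted p = 0.00121). It kept its call with each library left out and under every setting. The count of 1 stands beside 34.8% of all genes, whose median was 0.33. After rescaling, which lowers the values by about that median, *PRP3* was at -0.38, *EXPA7* at -0.30, *EXPA18* at -0.08, *LRX1* at 0.28 and *COBL9* at 0.23, again with none called. In *ein6-1* alone limma called 0 of 10 in air, beside 4.19% of all genes, and the count was 0 under all other settings. *PRP3* and *EXPA18* had an unadjusted p below 0.05 in limma, as had 3298 of all 20592 genes. *PRP3* had 159 and 260.1 TPM there and *EXPA18* 62.7 and 95.9 TPM. The 4 comparisons share the 2 L*er* air libraries.

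After ET, *ein2-45* again had less wall gene RNA than L*er*, while *ein6-1 een-1* did not. *RSL4* had 8.62 and 6.31 TPM in *ein2-45* against 18.6 and 23.3 TPM in L*er* (-1.38 ± 0.20, adjusted p = 4.42e-05). *EXPA7* had 15.4 and 15.3 TPM against 36.4 and 49.7 TPM (-1.41, adjusted p = 5.52e-05), and *PRP3* had 95.7 and 97.4 TPM against 194.9 and 361 TPM (-1.45, adjusted p = 0.000207). *LRX1* (-0.90) and *EXPA18* (-0.86) were lower as well, and *GL2* was higher, at 11.0 and 10.5 TPM against 4.04 and 5.28 TPM (1.06 ± 0.20, adjusted p = 0.000557). These 6 of 10 stand beside 21.1% of all genes. *RSL4*, *GL2*, *PRP3* and *EXPA7* kept their calls with each library left out. *EXPA18* lost its call without L*er* ET replicate 2 or *ein2-45* ET replicate 2, and *LRX1* without L*er* ET replicate 2 or either *ein2-45* ET library (adjusted p up to 0.422).

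In *ein6-1 een-1* after ET, 5 of 10 were higher than in L*er*, beside 21.4% of all genes (2278 higher and 2130 lower). *GL2* had 9.13 and 9.92 TPM (0.90 ± 0.20, adjusted p = 0.00229), *RSL2* had 5.57 and 4.74 TPM (1.07, adjusted p = 0.00428), and *LRX1* had 66.5 and 63.1 TPM against 21.8 and 42.7 TPM (1.06, adjusted p = 0.0103). *RHD6* (0.80, adjusted p = 0.0124) and *EXPA18* (0.77, adjusted p = 0.0285) made up the rest. *RSL4*, at 15.9 and 12.1 TPM, did not pass as deposited (-0.55, adjusted p = 0.059) and was lower after rescaling (-0.58, adjusted p = 0.048), and with *COBL9* higher (0.64, adjusted p = 0.0419) the split was then 6 higher and 1 lower. Without L*er* ET replicate 1 none of the 5 calls remained (adjusted p 0.0526 for *GL2* and up to 0.487 for *EXPA18*). Without *ein6-1 een-1* ET replicate 1 the calls of *RHD6*, *RSL2*, *LRX1* and *EXPA18* were lost, and without replicate 2 that of *RHD6*.

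In the single mutants after ET the counts were smaller. In *ein6-1*, *LRX1* (18.5 and 11.7 TPM, -1.01), *PRP3* (154 and 136 TPM, -0.87) and *EXPA7* (27.0 and 22.5 TPM, -0.76) were lower, with adjusted p of 0.0277, 0.0278 and 0.0262. These 3 of 10 stand beside 12.1% of all genes, whose median moved by -0.31, and none of the 3 passed after rescaling or without *ein6-1* ET replicate 2 or L*er* ET replicate 2. In *een-1* the 1 call was *EXPA7*, at 21.2 and 23.3 TPM (-0.91, adjusted p = 0.0183), beside 6.85% of all genes. It was lost without any 1 of the 4 libraries compared (adjusted p up to 0.127), and after rescaling *RSL4* was lower too (-0.74, adjusted p = 0.0244).

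Among the mutants of the second table, *arp5-1* had more RNA of 7 of the 10 genes than Col-0. *RSL4* had 22.9 and 17.7 TPM against 4.97 and 5.02 TPM, a 4.07-fold difference of the means (log2 fold change 1.82 ± 0.19, adjusted p = 5.5e-05). *EXPA18* had 115 and 114 TPM against 35.3 and 35.8 TPM (1.66, adjusted p = 5.87e-05), and *PRP3* had 349 and 337 TPM against 145 and 136 TPM (1.28, adjusted p = 0.000388). *EXPA7* had 44.8 and 47.9 TPM against 24.3 and 20.9 TPM (1.01, adjusted p = 0.000315), and *COBL9* had 11.8 and 16.1 TPM against 7.34 and 7.09 TPM (0.85, adjusted p = 0.00353). In all of these both *arp5-1* libraries lay above both Col-0 libraries.

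The non-hair regulator *WER* was higher in *arp5-1* too, at 32.1 and 31.3 TPM against 12.0 and 12.9 TPM (1.28, adjusted p = 6.26e-05), and *RSL2* had 6.00 and 6.47 TPM against 1.5 and 3.70 TPM (1.08, adjusted p = 0.00968). *GL2*, at 7.95 and 9.20 TPM, and *RHD6*, at 3.44 and 5.13 TPM, overlapped Col-0, and *LRX1* did not pass as deposited (0.45, adjusted p = 0.0873) and did after rescaling (0.52, adjusted p = 0.0483). The 7 of 10, all higher, stand beside 50.4% of all genes called in either direction (4537 higher and 5613 lower). The median was 1.04 over the 10 genes and -0.07 over all genes. The call of *RSL2* was lost without Col-0 replicate 1 or *arp5-1* replicate 2 (adjusted p up to 0.0579), and the other 6 were kept with each library left out. The root markers summed to 312 and 281 TPM in *arp5-1* and 764 and 696 TPM in Col-0, with 4 of 9 tested lower and 1 higher, and the endodermal gene *CASP1* made up most of this sum. The shoot markers summed to 1076 and 1505 TPM in *arp5-1* and 962 and 714 TPM in Col-0, with 4 of 8 higher and 2 lower. Most of the shoot sum was *PDF1*. The part of the root and shoot markers in the result was not tested.

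*een-2* had higher *WER*, at 19.5 and 22.0 TPM against 12.0 and 12.9 TPM (0.69 ± 0.14, adjusted p = 0.0159), and higher *EXPA7*, at 35.8 and 34.7 TPM against 24.3 and 20.9 TPM (0.62, adjusted p = 0.0262). These 2 of 10 stand beside 9.67% of all genes. *EXPA18*, at 61.1 and 47.5 TPM, did not pass (0.59, adjusted p = 0.0613). Without any 1 of the Col-0 libraries or *een-2* replicate 2 the call of *WER* was lost, and without any 1 of the 4 libraries that of *EXPA7* (adjusted p up to 0.144). In *ino80-8* limma called 0 of 10, beside 2.98% of all genes, and the count was 0 under all other settings. *RSL2* and *LRX1* had an unadjusted p below 0.05 in limma, as had 3502 of all 20152 genes. *LRX1* had 14.2 and 13.2 TPM there against 29.1 and 19.9 TPM in Col-0 (-0.77, adjusted p = 0.0787). *EXPA7* was lower than L*er* in *een-1* and higher than Col-0 in *een-2*; the 2 alleles are in different backgrounds and tables, and the difference between them was not tested. The 3 mutants share the Col-0 libraries.

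**Figure D2:**
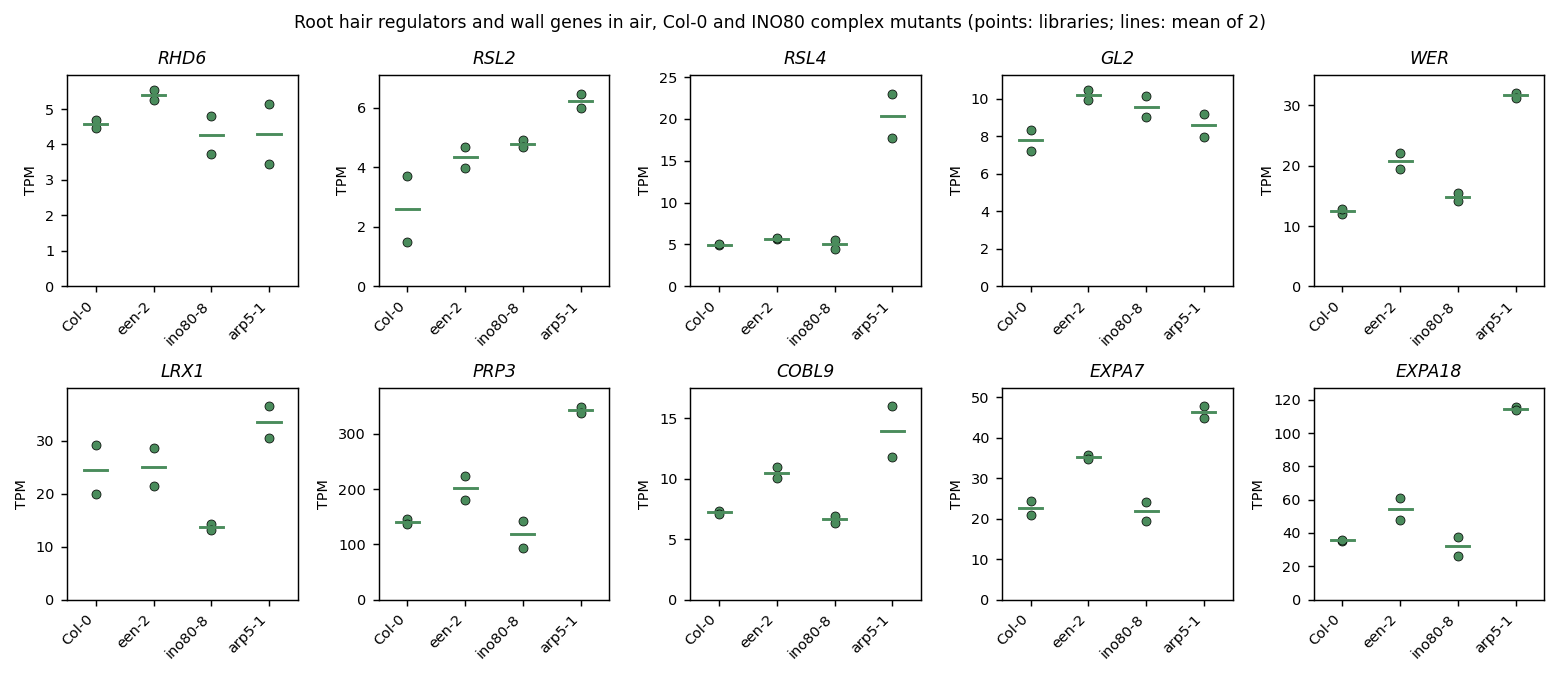
TPM (vertical axis, linear, from 0) of each gene in seedlings grown in air (horizontal axis: Col-0, *een-2*, *ino80-8* and *arp5-1*), where points are libraries and lines are means of 2. *RSL4* reaches 17.7 and 22.9 TPM in *arp5-1* and stays between 4.49 and 5.78 TPM in the other groups.

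**Figure D3:**
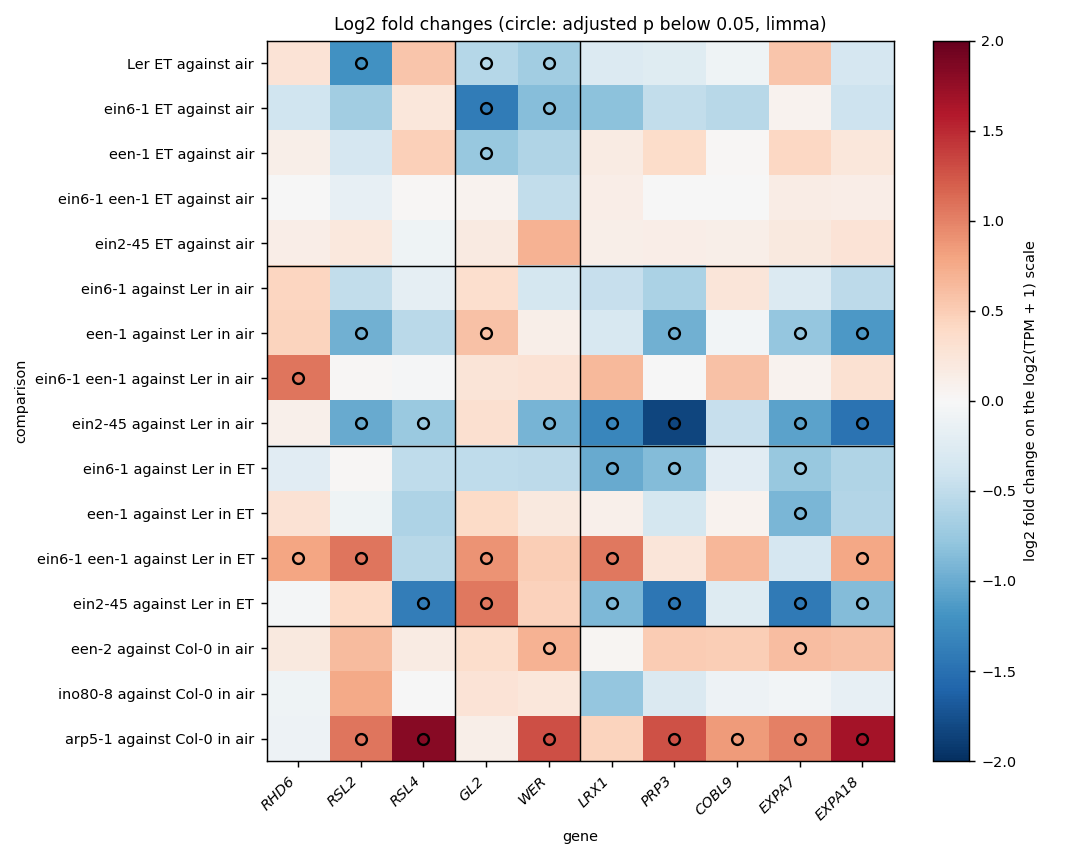
Log2 fold changes (color, blue lower and red higher, on the log2(TPM + 1) scale) of the 10 genes (columns) in 16 comparisons (rows), with a circle where the adjusted p was below 0.05. The 4 wall genes other than *COBL9* are circled and lower in both rows that set *ein2-45* against L*er*, with no circle in the row of ET against air in *ein2-45*, and *RSL4* and *EXPA18* show the highest values in *arp5-1*.

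Other genes of hair growth were read from a list of 23 loci, which encode NADPH oxidase, GTPase regulators, kinases, peroxidases and wall proteins. In *ein2-45* in air 12 of 23 were lower and none higher, beside 15.8% of all genes called (895 lower and 2360 higher). The median was -0.93 over the 23 and 0.18 over all genes. The 3 with the smallest adjusted p were the extensin gene *EXT12* (28.7 TPM on average against 149 TPM, -2.33), *PRP1*, a proline-rich protein gene like *PRP3* (14.6 against 87.1 TPM, -2.5), and the peroxidase gene *RHS19* (29.9 against 149 TPM, -2.29). After ET 13 were lower and 2 higher in *ein2-45*, beside 21.1% of all genes, led by the same 3 (*PRP1*, -2.86, *EXT12*, -2.24, and *RHS19*, -1.98). In *arp5-1* 15 of 23 were higher and 2 lower, beside 50.4% of all genes called (4537 higher and 5613 lower). The median was 0.80 over the 23 and -0.07 over all genes. *RHS18*, a peroxidase gene (2.26), *ADF8*, an actin depolymerizing factor gene (2.35), and *COW1*, a phosphatidylinositol transfer protein gene (2.07), had the smallest adjusted p, and *EXT12* was lower (-1.31). In *een-1* in air 9 were lower and none higher, beside 23.7% of all genes (540 lower and 4343 higher). The 9 were led by *ADF8* (-1.02), *AGP3*, an arabinogalactan protein gene (-1.23), and *RHS13* (106 against 214 TPM on average). The median was -0.18 over the 23 and 0.32 over all genes.

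For ET in L*er* 1 of 23 was lower, *SHV3*, a GPI-anchored protein gene (-0.73), beside 19.5% of all genes. In *ein6-1* 5 were lower, beside 11.4% of all genes (1957 lower and 400 higher). In limma 13 of the 23 had an unadjusted p below 0.05, as had 5031 of all 20592 genes. The median was -0.51 over the 23 and -0.20 over all genes, and the calls were not read after rescaling. *SHV3* (-1.22), the GTPase gene *ROP2* (-0.77) and the kinase gene *OXI1* (-0.93) had the smallest adjusted p. In *een-1* 1 was higher, *PRP1* (0.79, adjusted p = 0.0436), with 59.2 TPM in air and 103 TPM after ET on average, beside 7.35% of all genes. In *ein6-1 een-1* and *ein2-45* limma called 0 of 23, beside 0.379% and 0% of all genes. In both, 0 of 23 had an unadjusted p below 0.05, beside 1096 and 514 of all 20592 genes.

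Between the remaining genotypes and their controls, *ein6-1 een-1* in air had 1 higher and 2 lower of 23 (*PRP1*, -1.39, *OXI1*, 0.85, and *EXT12*, -0.69), beside 34.8% of all genes. After ET it had 2 higher and 1 lower (*PRP1*, -1.43, *OXI1*, 1.09, and *SHV3*, 0.85), beside 21.4%. *ein6-1* had 0 called in air, beside 4.19% of all genes. In limma 6 of the 23 had an unadjusted p below 0.05 there, as had 3298 of all 20592 genes. After ET 7 were lower in *ein6-1*, beside 12.1% of all genes (2302 lower and 192 higher, median -0.31). They were led by *EXT12* (-1.10), *COW1* (-1.08) and *ADF8* (-0.64). This comparison holds the *ein6-1* ET library with the highest rRNA share, and its calls in the list were not read after rescaling. *een-1* had 2 lower after ET, *ADF8* (-0.77) and *RHS13* (-0.79), beside 6.85%. *een-2* had 3 higher, *RHS15* (1.15), *ADF8* (0.93) and *RHS19* (0.82), beside 9.67%, and *ino80-8* had 1 lower, *PRP1* (-1.42), beside 2.98%.

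Of 4 further bHLH genes of hair development, *LRL1* rose with ET in L*er* (36.0 to 78.3 TPM on average, 1.10), *ein6-1* (0.70) and *een-1* (0.59). Its ET response was smaller than that of L*er* in *ein6-1 een-1* (difference -1.11, adjusted p = 0.0147) and *ein2-45* (-0.93, adjusted p = 0.0384). In *ein6-1 een-1* it was already at 67.2 TPM on average in air, above L*er* (0.88, adjusted p = 0.000896), and in *ein2-45* it was lower than in L*er* after ET (-0.76). *LRL1* was lower than in Col-0 in *een-2* (-0.66, adjusted p = 0.0125) and *arp5-1* (-0.85, adjusted p = 0.00033). *LRL3* was lower than in L*er* in *een-1* (-0.90) and *ein2-45* (-0.84) in air, and higher in *arp5-1* than in Col-0 (0.91). *RSL1* was higher than in L*er* in *ein6-1 een-1*, at 1.79 against 0.36 TPM on average in air (adjusted p = 0.0141) and by 1.18 on the log2 scale after ET. Its L*er* mean lay below 1 TPM. *RSL3* and *RSL5* are not among the 4, as their reference symbols differ. *RSL5* averaged 2.44 TPM in L*er* in air and was lower in *ein6-1 een-1* (0.665 TPM, -1.06) and *ein2-45* (0 TPM, -1.77). It was higher with ET in L*er* (5.155 TPM, 0.84) and in *arp5-1* than in Col-0 (3.635 against 0.52 TPM, 1.62). *RSL3* was higher than in L*er* in *ein6-1 een-1* in air (2.91 against 0.69 TPM on average, 1.19). At such low levels the 1 added in log2(TPM + 1) weighs on the fold changes.

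A further 11 genes of epidermal patterning encode the partners and inhibitors of WER and the kinase that positions it. For ET limma called 0 in L*er* and 0 in *ein6-1*, beside 19.5% and 11.4% of all genes. In these 2 genotypes 0 and 5 were below an unadjusted p of 0.05 in limma, as were 7066 and 5031 of all 20592 genes. In *een-1* it called 1, the MYB inhibitor gene *TRY* (1.11), beside 7.35%. Against L*er* in air it called 1 in *ein6-1* (4.19% of all genes), 1 in *een-1* (23.7%) and 2 in *ein2-45* (15.8%). In *ein6-1 een-1* in air it called 4 (34.8%). After ET these counts were 2 (12.1%), 1 (6.85%), 3 (21.1%) and, in *ein6-1 een-1*, 2 (21.4%). *SCM*, the kinase gene, was higher than in L*er* in air in *een-1* (1.20), *ein6-1 een-1* (0.88) and *ein2-45* (0.84), and after ET in the same 3 genotypes (0.85, 0.57 and 0.64). The inhibitor gene *ETC1* was lower than in L*er* in *ein6-1* in air (-1.32) and after ET (-0.84) and in *ein2-45* in air (-0.80), and higher in *ein6-1 een-1* in air (0.99). *EGL3*, a WER partner gene, was higher in *ein6-1 een-1* in air (0.90) and lower in *ein6-1* after ET (-0.86). The *ein6-1* calls of *ETC1* and *EGL3* after ET include the library with the highest rRNA share and were not read after rescaling. After ET *MYB23*, a relative of *WER*, was higher in *ein6-1 een-1* (1.10) and *ein2-45* (1.12), and *TRY* was lower in *ein2-45* (-0.89). In *arp5-1* 3 of 11 were higher and 2 lower, a share near the 50.4% of all genes called, with *JKD*, a zinc finger gene (-0.76), *ETC1* (1.67) and *EGL3* (1.12) at the smallest adjusted p.

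Across libraries the 10 pairs of wall genes had positive correlations. On the log2(TPM + 1) scale Pearson's r between *PRP3* and *EXPA18* was 0.92 over the 20 libraries of the first table and 0.99 over the 8 of the second. Between *RSL4* and *EXPA7* it was 0.91 and 0.83, and between *LRX1* and *PRP3* 0.89 and 0.83. The lowest values among the wall pairs were 0.58 for *COBL9* with *EXPA7* in the first table and 0.78 for *LRX1* with both *EXPA7* and *EXPA18* in the second. *WER* had r of 0.08 with *EXPA7* and 0.43 with *EXPA18* over the 20 libraries and of 0.94 and 0.93 over the 8, where *arp5-1* was high in all 3 genes. *GL2* and *EXPA7* had r of -0.41 and 0.14, and *GL2* and *RSL4* -0.61 and -0.24. The r of *GL2* with *WER* was 0.65 over the 20 libraries and 0.14 over the 8. The libraries of a table share 2 per group, their rRNA shares and, within a library, 1 total, so these r are descriptions with no test.

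**Figure D4:**
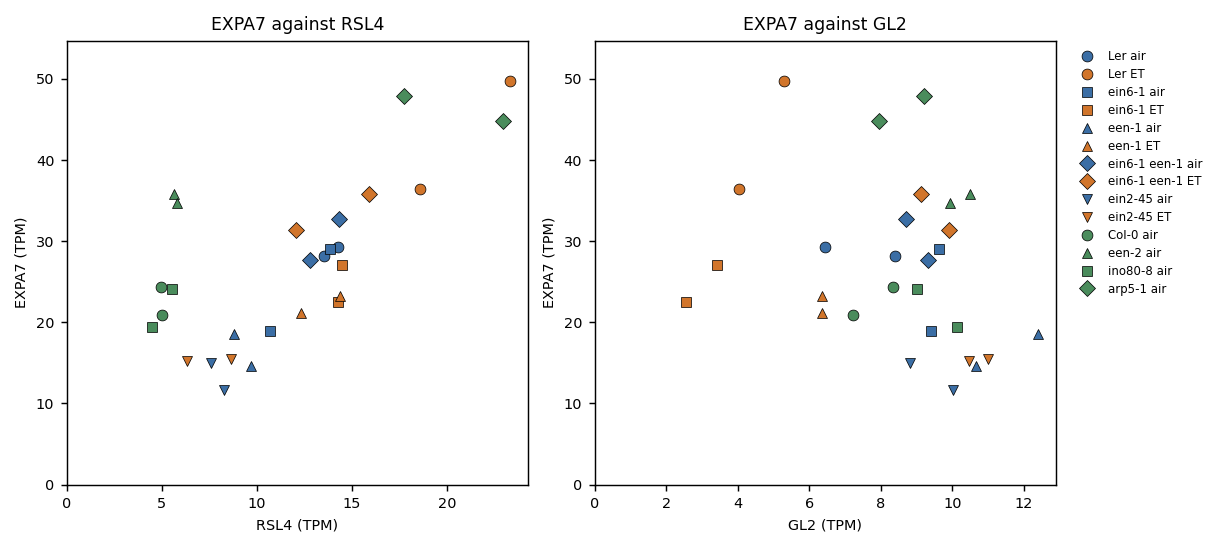
*EXPA7* (vertical axes, TPM) against *RSL4* (left, TPM) and *GL2* (right, TPM) in all 28 libraries, where symbols mark groups, blue is air and orange ET in the first table, and green is the second table. *EXPA7* is high where *RSL4* is high within each table, while the *een-2* libraries have 34.7 and 35.8 TPM of *EXPA7* at 5.62 and 5.78 TPM of *RSL4*.

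Among 19394 genes with a mean of at least 1 TPM, the 8 whose levels were most like the mean profile of the 5 wall genes over the 20 libraries were compared again in the second table. The first was AT1G30870, annotated as a peroxidase, with r of 0.98 in both tables. AT5G04960, annotated as a plant invertase and pectin methylesterase inhibitor protein (0.98 and 0.97), and *G3Pp2* (AT4G25220, 0.97 and 0.89), named *RHS15* on the list of hair growth genes, followed. The others were the peroxidase gene AT1G05240 (0.97 and 0.94), *CCP3* (AT2G25240, 0.96 and 0.78), the kinase gene AT1G70450 (0.96 and 0.78), *MRH6* (AT2G03720, 0.96 and 0.94), also on the list of hair growth genes, and the plasma membrane proton pump gene *HA7* (AT3G60330, 0.96 and 0.93). The 4 most like *GL2* were *ORP3B* (AT3G09300, 0.97), *BRS1* (AT4G30610, 0.96), AT5G23400 (0.96) and *KCS5* (AT1G25450, 0.96). Over the other 8 libraries their r with *GL2* was 0.35, 0.30, 0.84 and 0.48, below the first-table value in each case.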

How the data were processed

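RNA was measured in 28 libraries of 3-day-old etiolated seedlings. Per the submitters' processing notes the authors aligned single reads (STAR 2.6.0c, TAIR10) and estimated gene levels by RSEM; the annotation is not given in the sources used here. The deposited values are TPM per gene and were not scaled between libraries. The authors named edgeR for their own tests; counts were not used here, so depth is unknown and no counting interval is given. Of 33602 gene identifiers 32835 match TAIR10.1. A further 4 columns of the second table equal first-table libraries in every gene and were counted once, and 0 per-sample columns were left unmapped. One *ino80-8* column carries a replicate number other than its label and was mapped by name.

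TPM was compared as log2(TPM + 1) where 2 or more libraries of a table reached 1 TPM (20592 and 20152 genes). Group means were fitted per table without a block in limma 3.58.1 (R 4.3.3) with a variance trend, Benjamini-Hochberg adjustment over all genes tested and a call at adjusted p below 0.05. The fit was tested on simulated data: at the design of ET in L*er* it found 69 of 100 changes of 1 on the log2 scale, 95 of 100 changes of 2, and 8 unchanged genes, and at that of *arp5-1* 87, 98 and 7. The members, the further lists, the rules and the alternatives (TPM minimum, pseudocounts of 0.1 and 5, compared groups alone, rescaling, rRNA and organelle genes left out, a replicate block, each library left out, *ein6-1* ET replicate 2 left out with rescaling) were chosen with earlier results of these data known. By rule all 10 members are named, of each further list the 3 called genes with the smallest adjusted p, and the 8 and 4 most alike genes; *EXT12* in *arp5-1* was named after its value was seen. From the lists 5 names were left out of the counts because the reference symbol differs. Of these, *RSL3* and *RSL5* were named after their values were seen. Positions and sequences are RefSeq's (TAIR10.1). Python 3.11.15 (matplotlib 3.10.9 for figures) did the rest. The chromatin and methylation data of the series were not analysed here. A withheld item is not reported here.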

Additional observations from a re-analysis of the deposited data

Results flagged for a closer look

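For 2 genes a direct test of the difference set the ET response of *ein2-45* apart from the one in L*er* (limma, air and ET libraries of both genotypes). The response of *RSL2* was higher in *ein2-45* by 1.42 on the log2 scale (adjusted p = 0.031) and that of *WER* by 1.39 (adjusted p = 0.0103). Both genes were lower after ET in both L*er* libraries, and both had lower values in *ein2-45* than in L*er* before treatment. In the other 3 genotypes of the first table the same test called no member at the deposited scale.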

How the results depend on the processing

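Of 5410 values of single genes under alternatives 5206 kept their call, 130 lost one, 74 gained one and 0 reversed, while 145 that were not called changed sign. Of 45 calls 33 were kept under every setting run (9 for the table of 20 libraries, 8 for that of 8), 16 with each library left out and 15 under both. Counts of the 10 genes moved as follows. With the compared groups alone they went from 2 to 0 for ET in *ein6-1*, from 1 to 4 in *ein6-1 een-1* in air (*LRX1*, *COBL9* and *EXPA18* added), from 3 to 0 in *ein6-1* after ET, from 1 to 2 in *een-1* after ET and from 2 to 0 in *een-2*. With rescaling they went from 2 to 1 for ET in *ein6-1*. With rescaling, with rRNA and organelle genes left out, and with rescaling and no second *ein6-1* ET library, they went from 1 to 2 for ET in *een-1*, from 3 to 0 in *ein6-1* after ET, from 1 to 2 in *een-1* after ET, and from 0 to 2 for the ET response of *ein6-1 een-1*. Without a TPM minimum they went from 3 to 1 in *ein6-1* after ET and from 2 to 1 for the ET response of *ein2-45*, and a pseudocount of 5 gave 2 in *een-1* after ET. The causes were not tested.

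With each library left out the counts ranged from 0 to 5 for ET in L*er*, 1 to 4 in *ein6-1* and 0 to 2 in *een-1*. In air they ranged from 0 to 6 in *een-1*, 1 to 2 in *ein6-1 een-1* and 5 to 7 in *ein2-45*, and after ET from 0 to 5 in *ein6-1*, 0 to 2 in *een-1*, 0 to 7 in *ein6-1 een-1* and 4 to 6 in *ein2-45*. For the ET responses they ranged from 0 to 1 in *ein6-1*, 0 to 1 in *ein6-1 een-1* and 0 to 3 in *ein2-45*, and in the second table from 0 to 3 in *een-2* and 6 to 7 in *arp5-1*. A group with 1 library left was taken to vary like the others. Without *ein6-1* ET replicate 2 the counts were 5 for ET in L*er*, 1 in *ein6-1*, 2 in *een-1*, 6 in *een-1* in air and 7 in *ein6-1 een-1* after ET.

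Counts over all genes moved too. With the compared groups alone they went from 2357 to 544 for ET in *ein6-1*, from 4883 to 8519 in *een-1* in air, from 3255 to 5144 in *ein2-45* in air and from 1949 to 766 in *een-2*. With rescaling they went from 1514 to 2964 for ET in *een-1*, from 2494 to 1487 in *ein6-1* after ET and from 763 to 1923 for the ET response of *ein2-45*. Without *ein6-1* ET replicate 1 the ET response of *ein6-1* went from 3 to 11289, and without a TPM minimum the count in *ino80-8* went from 600 to 294.

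The labels number the replicates 1 and 2 in every group. Correlations of same-numbered deviations between groups ran from -0.267 to 0.265 (45 pairs, median 0.0226) in the first table and from -0.0753 to 0.186 (6 pairs, median 0.0488) in the second. These values cannot decide whether same-numbered libraries of some groups were grown or prepared together. With a replicate block the count was 2 for ET in L*er* (*GL2* lost) and 3 in *een-2* (*EXPA18* gained), and it changed no other count. TPM hold no counts, so how far depth limits the low genes *RSL2* and *RHD6* is unknown.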
